A study of Mus musculus with 12 samples.

Results

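The 6 genes described here encode inhibitory receptors of T cells and ligands of such receptors. The receptors are PD-1 (Pdcd1), CTLA-4 (Ctla4), LAG-3 (Lag3) and CD160 (Cd160), and the ligands are PD-L2 (Pdcd1lg2) and CD200 (Cd200). They were chosen by name, with earlier results of these arrays known. Their counts, medians and ranks beside all probe sets therefore describe these genes and are no test of the set. Of the 22690 probe sets of the array, 8 carry 1 of these symbols alone. All 8 passed the filter on dim probe sets (a mean over the arrays of at least 4.48 log2). Cd160 has 3 probe sets and the other genes 1 each, and the probe set with the highest mean stood for Cd160.

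Inhibitory receptors appear on T cells after the antigen receptor has been triggered, and they dampen its signal. PD-1 binds the ligands PD-L1 and PD-L2 and recruits the phosphatase SHP-2 to the activated receptor. CTLA-4 takes CD80 and CD86 away from the costimulatory receptor CD28, LAG-3 binds class II molecules, and CD160 binds the receptor HVEM. CD200 on a T cell can engage the CD200 receptor of myeloid cells.

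The cells were 5CC7 T cells, which carry a transgenic receptor for a moth cytochrome c peptide. In all 4 groups a fixed number of them were transferred into B10.A mice, a peptide was injected into the tail vein, and cells were sorted from pooled lymph nodes 48 h later. The groups were MCC peptide at 2 µg, MCC at 0.2 µg, 102S peptide at 2 µg and 102S at 0.2 µg, with 3 arrays each. The labels call MCC the strong and 102S the weak agonist, they give neither the age of the mice nor the number pooled per array, and no unstimulated cells were analysed here. The values are log2 expression values of an Affymetrix mouse array.

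Arrays of a group correlated across probe sets between r = 0.977 and 0.995. The replicate 1 array of every group came from female-type cells (Xist between 11.72 and 12.27 log2 on the 4 arrays). The other 8 came from male-type cells (4.05 to 5.10). Differences of the inhibitory receptor and ligand genes, and total counts of called probe sets, were therefore also fitted without replicate 1. No such fit is given for the genes of the other lists, the correlations, the shares of steps or the counts of probe sets by pattern. RNA degradation widens the gap between the 3′ and 5′ control probe sets of β-actin. This gap averaged 0.63 ± 0.12 log2 in the 2 µg MCC group, 1.62 ± 0.81 in the 0.2 µg MCC group, 1.24 ± 0.41 in the 2 µg 102S group, and 1.33 ± 0.88 in the 0.2 µg 102S group (SD, n = 3). The 2 µg MCC arrays lay below all arrays of each other group in it. All 8 measured CD4 T cell markers passed the filter, Cd4 and Cd3e among them.

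Across the design, 5 of the 6 genes stood in one order of mean levels (9.21% of all tested probe sets had it), highest with 2 µg of MCC, then 0.2 µg of MCC, then 2 µg of 102S, and lowest with 0.2 µg of 102S. The exception was Pdcd1lg2, whose mean was highest with 0.2 µg of MCC. Between the ends of that order, 2 µg of MCC against 0.2 µg of 102S, all 6 genes were higher (limma, Benjamini-Hochberg adjusted p-values between 1.44e-08 and 0.0138), where 11.5% of all 13556 tested probe sets were. Fewer transcripts per cell and fewer cells that carry them cannot be told apart in these sorted pools. The same 6 were called without replicate 1. Only Lag3 lost this call when 1 array was left out (adjusted p = 0.0599 without replicate 1 of 0.2 µg of 102S and 0.0542 without replicate 2 of 2 µg of MCC). The median difference was 2.95 log2 over the 6 genes and -0.04 log2 over all tested probe sets. In the order of size of the moderated statistic, Cd200 held rank 2 and Pdcd1 rank 7 of the 13556.

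**Figure D1:**
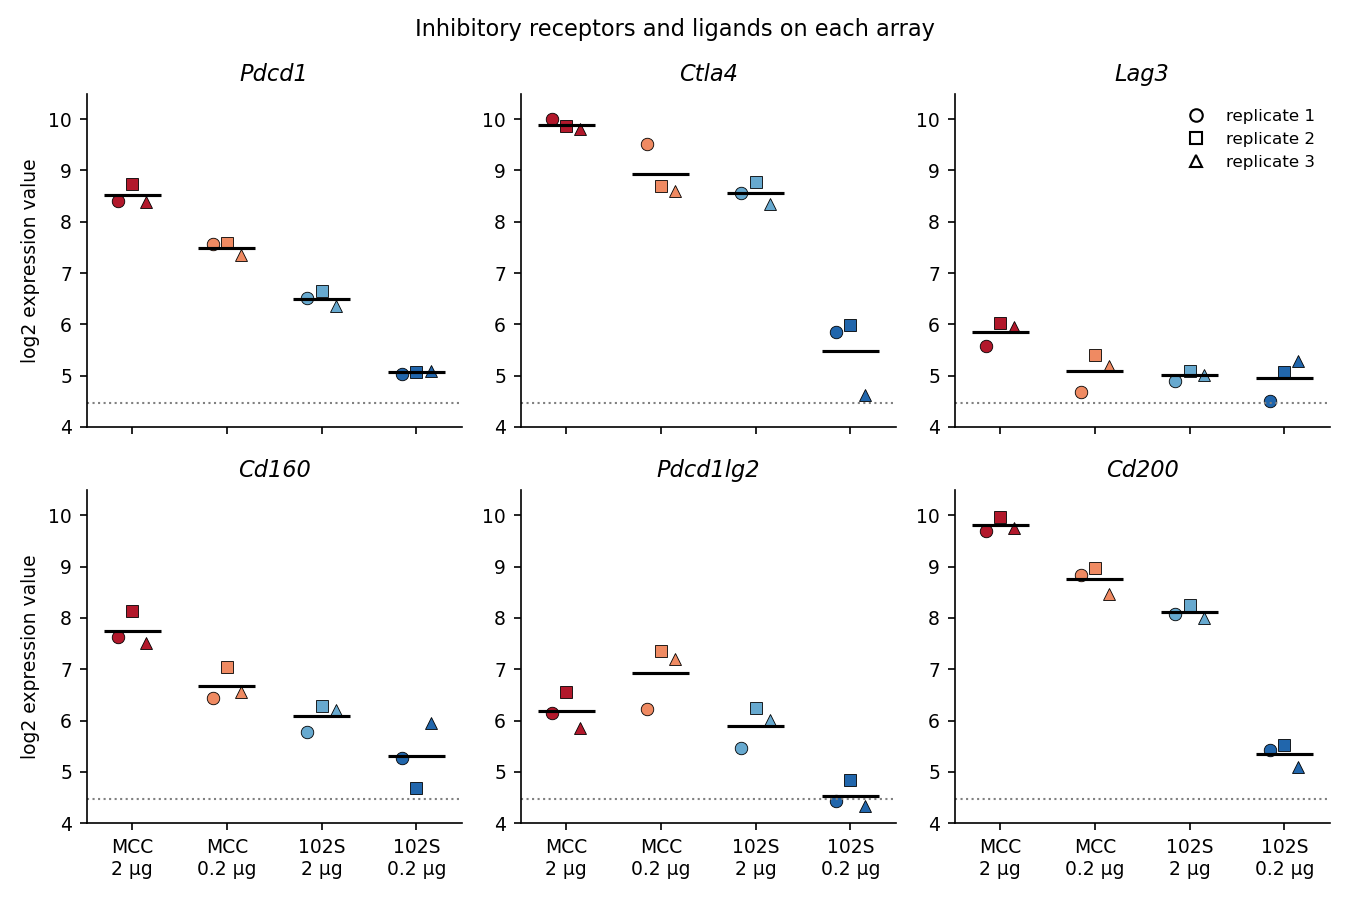
Log2 expression value (y axis) of the 6 genes on each of the 12 arrays by group (x axis), with symbols for replicates 1 to 3, bars for the group means and a dotted line at the filter of 4.48. The 4 groups of Pdcd1 and of Cd200 lie apart in 4 levels, Lag3 is raised in the 2 µg MCC group alone, and Pdcd1lg2 has its highest mean with 0.2 µg of MCC.

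Pdcd1 formed a ladder of 4 levels with little spread at each. On replicates 1, 2 and 3 it stood at 8.41, 8.74 and 8.38 log2 with 2 µg of MCC, at 7.56, 7.58 and 7.35 with 0.2 µg of MCC, at 6.52, 6.64 and 6.35 with 2 µg of 102S, and at 5.03, 5.08 and 5.09 with 0.2 µg of 102S. No array of one group reached into a neighbouring group. The 10-fold higher dose raised it by 1.02 ± 0.14 log2 with MCC (adjusted p = 0.004) and by 1.44 ± 0.14 log2 with 102S (adjusted p = 0.000133; ± are standard errors of the fit). Between those doses, 0.2 µg of MCC gave 1.99-fold more than 2 µg of 102S, a 10-fold higher dose of the weaker peptide (0.99 ± 0.14 log2, adjusted p = 0.00403). This middle step stayed called in each of the 12 omissions of 1 array and was not called without replicate 1 (0.97 log2, adjusted p = 0.0691). From end to end the difference was 10.9-fold.

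All 3 neighbouring steps of this ladder were called and upward for 5 probe sets on the whole array, which is 0.0369%. They belonged to Pdcd1, to the Rac exchange factor Tiam1, to Rilpl2, to the actin-capping protein Capg and to the spindle motor Kif11; the 4 other genes are named because of this count, after their values were seen. A looser condition, 4 groups that do not overlap in this order, was met by 107 probe sets (0.789%), among them those of Pdcd1 and Cd200.

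Ctla4 separated the lowest stimulus from the other 3. It stood at 9.995, 9.86 and 9.80 log2 with 2 µg of MCC, at 9.51, 8.70 and 8.60 with 0.2 µg of MCC, at 8.56, 8.77 and 8.35 with 2 µg of 102S, and at 5.85, 5.99 and 4.63 with 0.2 µg of 102S. The 0.2 µg MCC and 2 µg 102S arrays overlapped, and all arrays of the lowest group lay more than 2 log2 under every other array. The dose of 102S raised it 8.40-fold (3.07 ± 0.32 log2, adjusted p = 0.00017). The dose of MCC gave 0.94 ± 0.32 log2, which did not pass (adjusted p = 0.168), and the low MCC dose stood 0.38 log2 above the high 102S dose (95% interval -0.32 to 1.08). At 0.2 µg, MCC gave 10.9-fold more Ctla4 than 102S. At 2 µg it gave 2.50-fold more (adjusted p = 0.0211), a call that was lost without replicate 1 or 3 of 2 µg of 102S and without any 1 of the 2 µg MCC arrays (adjusted p up to 0.0875).

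Cd200 combined both features, a deep low point with 0.2 µg of 102S and 3 separate levels above it. Its values lay at 9.69, 9.98 and 9.76 log2 with 2 µg of MCC, at 8.83, 8.97 and 8.47 with 0.2 µg of MCC, at 8.08, 8.26 and 7.99 with 2 µg of 102S, and at 5.43, 5.52 and 5.09 with 0.2 µg of 102S. No 2 groups overlapped. The dose of 102S raised it 6.78-fold (2.76 ± 0.16 log2, adjusted p = 3.67e-06), rank 3 of all tested probe sets. The dose of MCC raised it 2.07-fold (1.05 ± 0.16 log2, adjusted p = 0.00748), and both dose effects were called in each of the 12 omissions. The step between 2 µg of 102S and 0.2 µg of MCC was 0.65 ± 0.16 log2 and missed the threshold (adjusted p = 0.0606). With the arrays paired by replicate number it was called (adjusted p = 0.00456).

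Pdcd1, Ctla4 and Cd200 correlated with each other across the 12 arrays (r between 0.928 and 0.980, a description in which the 4 groups carry most of the variation). Cd160 was as close to Pdcd1 (r = 0.930), but less close to Cd200 (r = 0.869) and Ctla4 (r = 0.773). For Pdcd1, Ctla4 and Cd200 the 250 bases before the start sites are shown. They are from RefSeq's GRCm38.p6 and run 5′ to 3′ on the gene's strand, and capitals mark the core motif of NFAT, a factor activated by calcium signals of the antigen receptor (GGAAA, either strand).
Pdcd1, chr1:94052554-94052803, minus strand: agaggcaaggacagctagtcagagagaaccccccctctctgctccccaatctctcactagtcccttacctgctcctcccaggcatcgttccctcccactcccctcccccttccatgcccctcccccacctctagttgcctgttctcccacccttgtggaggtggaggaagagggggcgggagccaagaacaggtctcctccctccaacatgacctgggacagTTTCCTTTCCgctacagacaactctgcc
Ctla4, chr1:60908775-60909024, plus strand: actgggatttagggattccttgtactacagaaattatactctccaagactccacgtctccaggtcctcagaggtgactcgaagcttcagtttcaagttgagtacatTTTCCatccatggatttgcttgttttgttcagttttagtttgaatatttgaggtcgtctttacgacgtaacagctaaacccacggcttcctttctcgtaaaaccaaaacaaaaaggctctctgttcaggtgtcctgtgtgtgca
Cd200, chr16:45409054-45409303, minus strand: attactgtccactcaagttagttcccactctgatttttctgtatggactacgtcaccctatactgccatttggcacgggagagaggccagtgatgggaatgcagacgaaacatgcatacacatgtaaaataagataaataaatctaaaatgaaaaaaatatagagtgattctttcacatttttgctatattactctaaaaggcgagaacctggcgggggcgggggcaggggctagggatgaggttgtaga
The motif occurred 2 times side by side before Pdcd1, 28 to 19 bases from its start, once before Ctla4 and in 0 places before Cd200. In windows not shown, the motif also occurred once before Pdcd1lg2 and once before 1 start of Cd160, with 0 before its other start. It is short, and 55.6% of the 32851 promoter windows in the table held it. The AP-1 motif TGANTCA was in none of the 3 windows shown and in 6.75% of all. A match describes letters only, and no match says nothing about the factor.

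Cd160, a receptor better known from natural killer and CD8 T cells, rose with the strength of the stimulus in smaller and noisier steps. It stood at 7.62, 8.13 and 7.52 log2 with 2 µg of MCC, at 6.44, 7.05 and 6.56 with 0.2 µg of MCC, at 5.78, 6.29 and 6.20 with 2 µg of 102S, and at 5.27, 4.68 and 5.96 with 0.2 µg of 102S. Only the 2 102S groups overlapped. MCC gave 3.17-fold more than 102S at 2 µg (1.66 ± 0.30 log2, adjusted p = 0.00417) and 2.60-fold more at 0.2 µg (1.38 ± 0.30 log2, adjusted p = 0.00851). None of the 3 neighbouring steps passed, with 1.07, 0.59 and 0.79 log2 from the top of the order down. Without replicate 3 of 0.2 µg of 102S both dose effects passed (adjusted p = 0.0355 for MCC and 0.0422 for 102S). The call at 0.2 µg was missed in a fit of those 6 arrays alone (adjusted p = 0.0522).

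The 3 probe sets of Cd160 did not all show this. A second one differed by 1.75 ± 0.28 log2 between MCC and 102S at 2 µg and by 2.09 ± 0.28 log2 at 0.2 µg, both called. The third stayed between group means of 4.39 and 4.81 log2, close to the filter, and was called in no comparison; its difference at 2 µg was 0.42 log2 (95% interval -0.05 to 0.90).

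Lag3 was dim, and it stood out with 2 µg of MCC alone. It had 5.58, 6.03 and 5.96 log2 there, but 4.67, 5.41 and 5.18 in the 0.2 µg MCC group, 4.90, 5.09 and 5.02 in the 2 µg 102S group, and 4.50, 5.08 and 5.28 in the 0.2 µg 102S group. The 3 lower groups overlapped, with means between 4.95 and 5.09. At 2 µg it was 1.80-fold higher with MCC than with 102S (0.85 ± 0.23 log2, adjusted p = 0.0381). That call was lost in 6 of the 12 omissions (any array of 2 µg of 102S, replicate 2 of 0.2 µg of 102S, and replicate 2 or 3 of 2 µg of MCC, with adjusted p up to 0.117) and with no filter (0.055). The dose of MCC gave 0.77 ± 0.23 log2, which did not pass (adjusted p = 0.127). The dose of 102S gave 0.05 log2 (95% interval -0.46 to 0.56). A doubling of the signal lies outside this interval. Both 102S groups lay near the filter, where differences in signal may be too small, so the interval cannot decide on a doubling of the transcript.

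Pdcd1lg2 encodes a ligand of PD-1 that is best known from dendritic cells and macrophages. On the arrays it stood at 6.16, 6.56 and 5.85 log2 with 2 µg of MCC, at 6.23, 7.35 and 7.21 with 0.2 µg of MCC, at 5.46, 6.24 and 6.01 with 2 µg of 102S, and at 4.43, 4.85 and 4.34 with 0.2 µg of 102S. The lowest group lay near the filter and below every other array, while the 3 other groups overlapped. At 0.2 µg MCC gave 5.25-fold more than 102S (2.39 ± 0.30 log2, adjusted p = 0.000205), and at 2 µg the difference was 0.29 log2 (95% interval -0.37 to 0.95). The dose of 102S raised it 2.58-fold (adjusted p = 0.0286). This call was lost without replicate 2 or 3 of 2 µg of 102S and without replicate 1 or 3 of 0.2 µg of 102S (adjusted p between 0.0814 and 0.168).

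With MCC the higher dose gave less Pdcd1lg2, by -0.74 ± 0.30 log2, which did not pass (adjusted p = 0.234). Cd274, which encodes the other PD-1 ligand, PD-L1, had group means between 7.03 and 7.19 log2 and was called in no comparison. Of the markers of myeloid and dendritic cells, 0 of 4 tested were called in any comparison by limma. Itgax, Cd14 and Itgam stayed below the filter on all 12 arrays. At an unadjusted p under 0.05 there was 1, the growth factor receptor Flt3. In the direction of Pdcd1lg2, its mean differed by -0.44 ± 0.15 log2 for the dose of MCC (adjusted p = 0.158) and by 0.46 ± 0.15 log2 between 0.2 µg of MCC and 2 µg of 102S (adjusted p = 0.137). For the dose of 102S, which raised Pdcd1lg2, the direction of Flt3 was the opposite, with means of 4.46 log2 at 2 µg and 4.60 log2 at 0.2 µg. Between the peptides at 0.2 µg its direction was again that of Pdcd1lg2, with means of 4.92 log2 for MCC and 4.60 log2 for 102S. The part of such cells in the level of Pdcd1lg2 was not tested. The summed unlogged signal of the 9 measured myeloid markers spanned 164 to 226 with 2 µg of MCC, 184 to 248 with 0.2 µg of MCC, 184 to 225 with 2 µg of 102S, and 187 to 265 with 0.2 µg of 102S.

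The comparisons share groups, so their counts are not independent of each other. MCC gave more than 102S for 5 of the 6 genes at 2 µg (all but Pdcd1lg2), where 4.04% of all tested probe sets were higher. At 0.2 µg it gave more for 5 of 6 (all but Lag3), where 7.85% were higher. Both counts were 5 without replicate 1. That at 2 µg fell to 3 without replicate 1 or 3 of 2 µg of 102S and without replicate 2 or 3 of 2 µg of MCC. The dose of 102S raised 4 of 6 (2.66% of all), namely Pdcd1, Ctla4, Pdcd1lg2 and Cd200. The dose of MCC raised 2 of 6 (0.708% of all), Pdcd1 and Cd200, and both dose counts were the same without replicate 1.

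The count for the dose of MCC depended on the fit. With the arrays paired by replicate number, 5 genes were called higher and Pdcd1lg2 lower (adjusted p between 0.0125 and 0.0392 for the 4 added calls). The β-actin gap moved with this contrast and did not overlap between its groups; with it as a covariate Lag3 (1.11 log2, adjusted p = 0.00901) and Cd160 (1.49 log2, adjusted p = 0.00559) were called as well, 4 in all. The same covariate lowered the difference of Ctla4 to 0.28 log2 (adjusted p = 0.386) and brought that of Pdcd1lg2 to -0.48 log2 (adjusted p = 0.446), neither of them called. The count was also 4 without replicate 3 of 0.2 µg of 102S, with Ctla4 and Cd160 added as higher. Without replicate 1 of 0.2 µg of MCC it was 4 as well, with Ctla4 added as higher and Pdcd1lg2 as lower (-1.09 log2, adjusted p = 0.035).

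**Figure D2:**
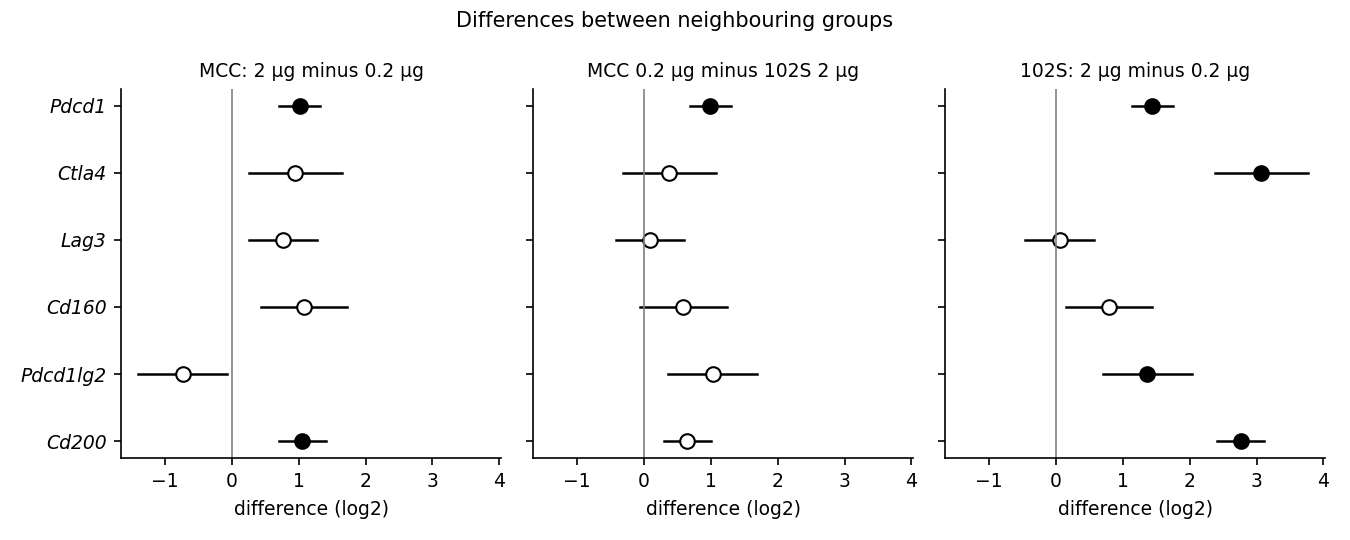
Differences between neighbouring groups (x axis, log2, with 95% intervals of the limma fit) for the 6 genes, filled where the Benjamini-Hochberg adjusted p was under 0.05. Pdcd1 is filled in all 3 panels, Ctla4 and Pdcd1lg2 with the dose of 102S alone, and Cd200 with both doses.

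The low dose of the strong peptide and the high dose of the weak one were set side by side because the doses differ 10-fold in the opposite direction to the strength. Of the 6 genes 1, Pdcd1, was higher with 0.2 µg of MCC than with 2 µg of 102S (1.56% of all tested probe sets), and all 6 differences were positive. The count was 0 without replicate 1. With arrays paired by replicate number it was 3, with Cd200 and Pdcd1lg2 (1.03 log2, adjusted p = 0.0101) added, with the β-actin covariate it was 4, with Ctla4 (0.63 log2, adjusted p = 0.00935) as well, and without replicate 1 of 0.2 µg of MCC or replicate 3 of 0.2 µg of 102S it was 2. For Ctla4, Lag3 and Cd160 the 95% intervals reached from -0.43 at the lowest to 1.23 at the highest.

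The effect of dose differed between the peptides for 2 of the 6 genes by the interaction term, where 0.693% of all tested probe sets had a negative one. For Cd200 the effect of the MCC dose was smaller than that of the 102S dose by 1.71 ± 0.23 log2 (interaction -1.71, adjusted p = 0.00432). For Pdcd1lg2 the interaction was -2.11 ± 0.43 log2 (adjusted p = 0.0465), with dose effects of opposite sign, of which that of MCC was not called. Ctla4 had -2.13 ± 0.45 log2 and missed the threshold (adjusted p = 0.0598). The call of Cd200 held in all 12 omissions of 1 array. That of Pdcd1lg2 was lost in 10, all but those of replicate 1 of 2 µg of 102S and replicate 1 of 0.2 µg of MCC (adjusted p between 0.0547 and 0.152). Ctla4 was called without replicate 2 or 3 of 0.2 µg of 102S (adjusted p = 0.0461 and 0.0234). It was also called with the β-actin covariate (-2.73 log2, adjusted p = 1.87e-06). Pdcd1 had -0.42 log2 (95% interval -0.86 to 0.01), and Lag3 and Cd160 had 0.72 and 0.28 log2, not called.

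For Cd200 the direction of that interaction belongs to the log2 scale. The antilogs of its group means were 897 with 2 µg and 433 with 0.2 µg of MCC, and 276 with 2 µg and 40.7 with 0.2 µg of 102S, so in unlogged signal the dose of MCC added more than the dose of 102S. The same turn in sign held for Pdcd1 and Ctla4. For Pdcd1lg2 the unlogged interaction stayed negative, at -85.5. On the log2 scale the dose of 102S made up 41.7% of the whole difference between 2 µg of MCC and 0.2 µg of 102S for Pdcd1, 69.9% for Ctla4, 61.9% for Cd200, 32.2% for Cd160 and 5.69% for Lag3. On the unlogged scale its shares were 17.3%, 36.9%, 27.5%, 16.3% and 4.17% in the same order. For orientation, the median of the log2 share over the 612 probe sets that were higher by at least 1 log2 in that comparison was 47.7%.

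**Figure D3:**
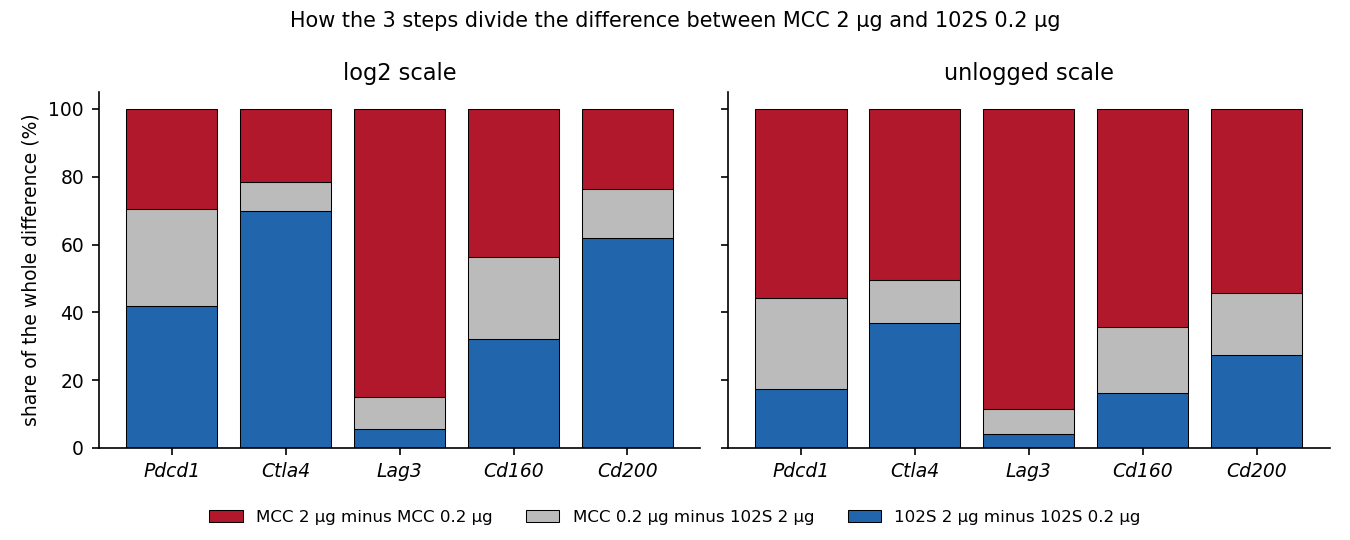
Share in % (y axis) that each of the 3 neighbouring steps takes of the difference between 2 µg of MCC and 0.2 µg of 102S, on the log2 scale (left) and on unlogged group means (right), for the 5 genes in which all steps are positive. The dose of MCC takes 29.5% for Pdcd1 on the log2 scale and 55.7% on the unlogged scale, and 84.9% and 88.6% for Lag3.

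Stimulatory surface molecules were set beside the inhibitory genes. Their list, like the others below, was drawn up with earlier results on these arrays known. Of 10 tested stimulatory genes 8 were higher with MCC than with 102S at 0.2 µg, 6 at 2 µg, and 5 rose with the dose of 102S. With the dose of MCC 0 rose and 1 fell (2 and 3 at an unadjusted p under 0.05), the TNF receptor family member Tnfrsf18 (-0.70 ± 0.13 log2, adjusted p = 0.0184), and the median difference was -0.16 log2 against 0.98 log2 over the 6 inhibitory genes and -0.01 log2 over all tested probe sets. Cd83, an activation glycoprotein, rose by 2.81 ± 0.20 log2 with the dose of 102S and differed by -0.24 log2 with that of MCC. The costimulatory receptor Icos rose by 1.13 ± 0.12 log2 with the dose of 102S and differed by -0.07 log2 with that of MCC. Negative interactions were called for 4 of these 10 genes. Over 6 other tested inhibitory receptors the median difference for the dose of MCC was 0.23 log2, and 1 of them, Slamf6, was called higher. The differences between the lists were not tested.

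**Figure D4:**
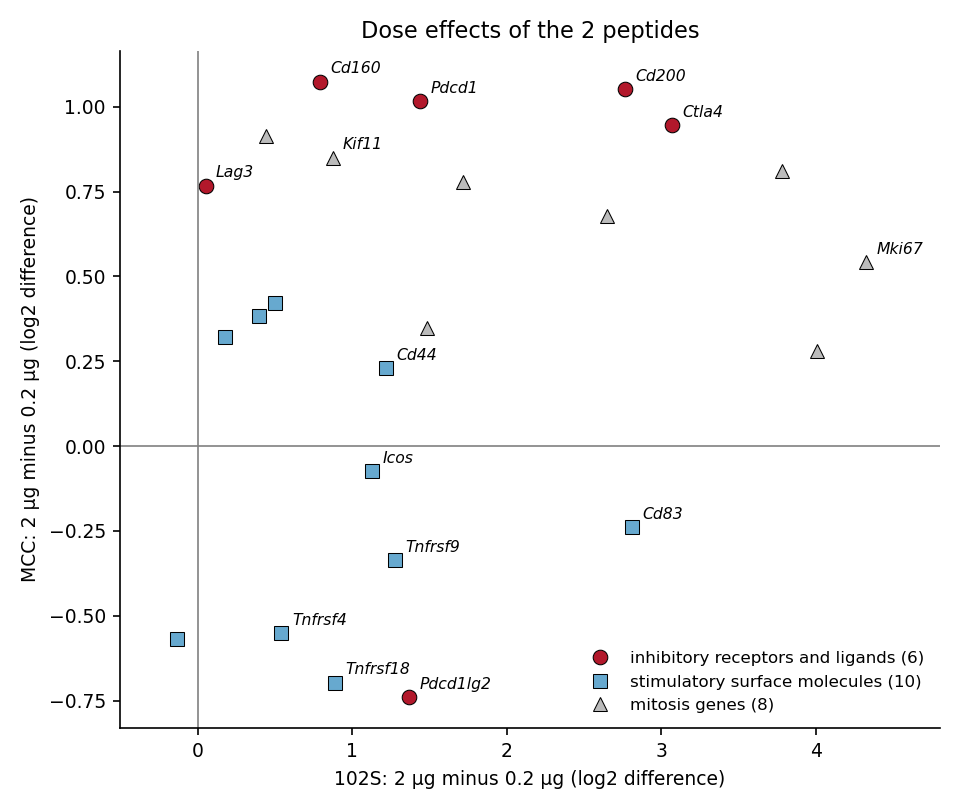
Log2 difference between 2 µg and 0.2 µg of MCC (y axis) against that between 2 µg and 0.2 µg of 102S (x axis) for the 6 inhibitory genes, 10 stimulatory surface molecules and 8 mitosis genes, 1 point per gene. Of the inhibitory genes 5 lie between 0.77 and 1.07 log2 on the y axis and Pdcd1lg2 at -0.74, and the stimulatory molecules lie between -0.70 and 0.42.

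Mitosis genes were also low with 0.2 µg of 102S. All 8 tested were higher with MCC than with 102S at either dose, 7 rose with the dose of 102S and 1, Kif11, with the dose of MCC (0.85 ± 0.19 log2, adjusted p = 0.0458). Their median difference for the dose of MCC was 0.73 log2, beside 0.98 log2 over the 6 inhibitory genes. A rise with this dose was thus not particular to the inhibitory genes. Mki67, the marker of cycling cells, averaged 10.03 and 9.48 log2 with 2 µg and 0.2 µg of MCC and 8.28 and 3.96 log2 with 2 µg and 0.2 µg of 102S. Mitosis genes were among those closest to Cd200 over the 12 arrays, with Cep55 (r = 0.988), Ccnb2 (r = 0.986) and Top2a (r = 0.986) first of 7944 genes.

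The genes closest to each member by pattern were also listed. For Pdcd1 they were Rilpl2 (r = 0.996), Ccdc50 (r = 0.988) and the thiol enzyme glutaredoxin Glrx (r = 0.988), and for Ctla4 the cytokine RANKL, Tnfsf11 (r = 0.992), the ERK phosphatase Dusp6 (r = 0.986) and Zfp948 (r = 0.981). The lists of Ctla4 and Cd200 overlapped: Zfp948 and Zfp52 were among the 5 closest genes of both, and Cd200 itself was among those of Ctla4. Cd160 lay closest to the aldolase Dera (r = 0.970), Pdcd1lg2 to the methyltransferase Lcmt1 (r = 0.966), and Lag3 to the intermediate filament vimentin, Vim (r = 0.941). Lag3 was the least like the other members, with r between 0.367 (Pdcd1lg2) and 0.792 (Cd160). These correlations over 12 arrays share the 4 groups and describe likeness of pattern only. Pdcd1 and Cd200 are also counted among genes of follicular helper cells, and their values there are the ones given here.

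Few other inhibitory receptors could be followed. Of 18 listed, 12 had a probe set of their own and 6 passed the filter. Cd5, a receptor whose level is set by the strength of antigen receptor signals, rose by 1.27 ± 0.14 log2 with the dose of 102S (adjusted p = 0.000232) and was 1.11 ± 0.14 log2 higher with MCC than with 102S at 0.2 µg. Slamf6 rose with the dose of 102S (1.07 ± 0.11 log2) and with that of MCC (0.86 ± 0.11 log2, adjusted p = 0.00221). Vsir, which encodes the inhibitory molecule VISTA, was lower with MCC than with 102S at 0.2 µg (-1.16 ± 0.27 log2, adjusted p = 0.0137). Havcr2, the gene of the receptor TIM-3 of long-stimulated T cells, lay far below the filter on all 12 arrays.

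Among 10 tested partners and competitors of these receptors, 0 passed between the peptides at 2 µg by limma (1 at an unadjusted p under 0.05) and 1 did at 0.2 µg. That gene was Cd86, a ligand for which CTLA-4 and CD28 compete, with group means of 7.47 and 7.38 log2 with 2 µg and 0.2 µg of MCC and of 7.45 and 5.03 log2 with 2 µg and 0.2 µg of 102S. It was 2.36 ± 0.40 log2 higher with MCC at 0.2 µg (adjusted p = 0.00187) and rose by 2.42 ± 0.40 log2 with the dose of 102S. Cd28 was 0.57 ± 0.16 log2 higher in the comparison of the ends (adjusted p = 0.0203).

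Of 16 genes for signalling and traffic of these receptors, 2 were higher and 1 lower with MCC at 2 µg, and 3 were higher and 1 lower at 0.2 µg. Ptpn11, the gene of the phosphatase SHP-2 that PD-1 recruits, was higher with MCC by 1.41 ± 0.15 log2 at 2 µg (adjusted p = 0.000186) and by 0.90 ± 0.15 log2 at 0.2 µg, and it rose with the dose of MCC (0.92 ± 0.15 log2, adjusted p = 0.00899). Adam10, a protease that sheds LAG-3 from the cell surface, rose with the dose of MCC by 0.58 ± 0.13 log2 (adjusted p = 0.0399). Inpp5d, the gene of the lipid phosphatase SHIP-1, was lower with MCC at 2 µg (-0.47 ± 0.13 log2). 

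Transcription factors of activated T cells were called for 3 of 15 genes upward and 1 downward with MCC at 2 µg and for 5 upward at 0.2 µg. Nfatc1, a form of NFAT that acts on Pdcd1, rose with the dose of MCC (0.85 ± 0.13 log2, adjusted p = 0.00741) and with that of 102S (0.63 ± 0.13 log2, adjusted p = 0.0187). Irf4 was 2.28 ± 0.19 log2 higher with MCC than with 102S at 0.2 µg and 1.22 ± 0.19 log2 higher at 2 µg. Foxo1, a factor of resting T cells, was lower with MCC at 2 µg (-0.31 ± 0.08 log2, adjusted p = 0.0261).

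CD8 T and NK cells can carry Cd160. The summed unlogged signal of 7 of their marker genes was 350 to 415 with 2 µg of MCC, 440 to 582 with 0.2 µg of MCC, 590 to 630 with 2 µg of 102S, and 889 to 1048 with 0.2 µg of 102S. Klrd1, an NK receptor chain, averaged 4.65 and 6.27 log2 with 2 µg and 0.2 µg of MCC and 7.33 and 8.63 log2 with 2 µg and 0.2 µg of 102S, and Ncr1, which defines NK cells, lay below the filter on all arrays. Of 6 tested markers 2 were lower and 0 higher with MCC at 2 µg (Klrd1 and Gzma) and likewise at 0.2 µg (Klrd1 and Prf1). As background for this and the other lists, 1392 of all 13556 tested probe sets were called between the peptides at 2 µg, 548 of them higher with MCC. At 0.2 µg 1939 were called, 1064 of them higher. Cd8a, Cd8b1 and Nkg7 were called at neither dose. The largest part of the difference in the sum came from Klrd1, with antilogs of its means of 25.0 and 77.3 with 2 µg and 0.2 µg of MCC, and 161 and 396 with 2 µg and 0.2 µg of 102S. Their part in the levels of Cd160 was not tested.

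B cells can carry Cd200. The summed signal of 7 B cell markers was 1821 to 2103 with 2 µg of MCC, 1649 to 1766 with 0.2 µg of MCC, 2160 to 2275 with 2 µg of 102S, and 2726 to 3095 with 0.2 µg of 102S, most of it from the immunoglobulin gene Ighm. Of 4 tested, Cd74 was higher with MCC at both doses, and at 0.2 µg Cd79b was higher and Ighm lower. Cd79a had group means between 4.23 and 4.24 log2 and Blnk stayed under the filter on all arrays. The part of these cells in the levels of Cd200 was not tested.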

How the data were processed

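RNA of sorted cells (100 ng) was labelled with biotin in a 16 h transcription step, per the labels' protocols. Each array's deposited column holds log2 expression, 1 value for each probe set; that this is the scale follows from their span of 1.86 to 14.74. Per the submitters' processing notes, GCOS 1.4 was used. Probe summarisation, array scaling and detection calls are not given there. Array medians differed by at most 0.089 log2, and the values were used as deposited. The array's number of replicates, not a read depth, limits the precision.

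Symbols came from the platform annotation (20393 of 22690 probe sets with 1 symbol, 691 with several, 1606 with none). Control probe sets (64) and probe sets with a mean under the 40th percentile were left out, which left 13556. A linear model per probe set with moderated variances was run on these (limma 3.58.1, R 4.3.3, intensity trend, 4 group means, no covariate, 12 arrays, 2-sided, Benjamini-Hochberg over all 13556, threshold 0.05) and the fit was tested on simulated data. The labels do not say that replicates were separate animals, so a p-value here reflects no more than the scatter of these samples; replicate 1 differed in sex from replicates 2 and 3, and the scatter between these last may be technical. A gene is named as a member, as one of up to 4 called genes of a list with the smallest p per comparison, or as one of the 5 genes most correlated with a member; other list genes are named for their role. The members and lists were chosen with earlier results of these data known.

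Groups share replicate numbers. Deviations of same-numbered arrays from their group means correlated over 0.1 in all 3 pairs for the dose of MCC (0.20 to 0.56), for 0.2 µg of MCC and 2 µg of 102S (0.39 to 0.82) and for 2 µg of MCC with either 102S group, where pairing was therefore considered. They did not for 0.2 µg of 102S against 0.2 µg of MCC or 2 µg of 102S (lowest -0.29). Promoter windows came from RefSeq (GRCm38.p6); that of Lag3 was not used here.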

Additional observations from a re-analysis of the deposited data

Results flagged for a closer look

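The effect of the dose differed between the peptides, by the interaction term of the limma fit, for 2 of the 6 genes. For Cd200 the effect of raising MCC to 2 µg was smaller than that of raising 102S to 2 µg, with a difference of -1.71 log2. On unlogged group means this difference had the opposite sign. For Pdcd1lg2 the difference was -2.11 log2 (adjusted p = 0.0465), and it kept its sign on unlogged means. This call was lost in 10 of the 12 omissions of 1 array. The effect of the 102S dose was positive, and that of the MCC dose was negative but not called (-0.74 log2, adjusted p = 0.234). The cause of either interaction was not tested.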

How the results depend on the processing

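Of the 924 values of single genes recomputed under the alternatives, 845 kept their direction and their side of the threshold. The count of genes called between the peptides at 2 µg ranged from 3 to 5 over the 12 omissions of 1 array, that at 0.2 µg from 5 to 5, that for the dose of MCC from 2 to 4, for the dose of 102S from 3 to 4, for the interaction from 1 to 2, for 0.2 µg of MCC against 2 µg of 102S from 1 to 2, and for the ends of the order from 5 to 6. The count for the dose of MCC was 6 with the replicate block and 4 with the β-actin covariate. That for 0.2 µg of MCC against 2 µg of 102S was 2 with quantile normalization, 3 with the replicate block, 4 with the β-actin covariate, 0 without replicate 1 and 2 without the 2 arrays with the widest β-actin gap, an alternative chosen after seeing the data. The interaction count was 1 with no filter, with the filter at the 60th percentile (which left Pdcd1lg2 and Lag3 untested), with median centring and with no trend. The interaction of Pdcd1lg2 was not called in 10 of the 12 omissions (adjusted p up to 0.152), and that of Cd200 was called in all 12. The interaction of Ctla4 was called with the replicate block (adjusted p = 0.00434), which changed no other call outside the dose of MCC and the comparison of 0.2 µg of MCC with 2 µg of 102S. The interaction uses 0.2 µg of 102S, whose arrays did not meet the pairing limit with 0.2 µg of MCC or with 2 µg of 102S. In all, 9 of 12 arrays correlated best with their own replicate number.

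Directions turned only for values that were not called in the main setting or on another scale. On unlogged means the interaction was 127 for Pdcd1, 122 for Ctla4 and 229 for Cd200. For Cd160 it ranged from -0.043 (without replicate 3 of 0.2 µg of 102S) to 0.59 over the 12 omissions, was -0.10 without the 2 arrays with the widest β-actin gap and -0.35 in its second probe set, and the third probe set gave -0.15 for the dose of 102S. Lag3 turned in 6 cases. Between the peptides at 0.2 µg it ranged from -0.090 to 0.34 over the 12 omissions, negative without replicate 1 of 0.2 µg of 102S and without replicate 2 of 0.2 µg of MCC. For the dose of 102S it ranged from -0.17 to 0.22, negative without replicate 1 of 0.2 µg of 102S, and was -0.12 without replicate 1 of all groups. For 0.2 µg of MCC against 2 µg of 102S it ranged from -0.075 to 0.29, negative without replicate 2 of 0.2 µg of MCC, and was -0.048 with the β-actin covariate.

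Over all probe sets, the calls between the peptides at 2 µg (1392) were 2485 with the replicate block, 3330 with the covariate and 775 without replicate 1. Those at 0.2 µg (1939) were 3496, 3645 and 1487. Those for the dose of MCC (239) were 1563, 542 and 606, and 61 to 1206 over the 12 omissions. Those for the dose of 102S (429) were 828, 1420 and 270. With the block and the covariate they were 321 and 285 for the interaction (104) and 1147 and 1176 for 0.2 µg of MCC against 2 µg of 102S (336), and with the covariate 5486 for the ends of the order (3447). The pairing limit was not met between 0.2 µg of 102S and either 0.2 µg of MCC or 2 µg of 102S. The blocked counts at 0.2 µg, for the dose of 102S and for the interaction rest on such pairs. The cause of these changes was not tested. Signal near the filter limits Lag3 and Pdcd1lg2, whose lowest groups lie there, so their differences from these groups may be too small. With 0.2 µg of 102S the means of Pdcd1 (5.06 log2), Cd160 (5.30), Cd200 (5.35) and Ctla4 (5.49) lay little higher. The same limit may hold for their differences from this group, and for the shares of steps and the interactions that use it.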
